A study of Mus musculus with 120 samples.

Results

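The 4 mouse chemokine genes described here, Ccl3, Ccl4, Ccl6 and Ccl9, are macrophage inflammatory protein members of the CC chemokine family or close relatives of such members. They were taken by symbol from a table of 23481 gene symbols, and all 4 were present in it. RNA was counted by 3′ digital gene expression, which reads a tag near the end of each transcript, in 120 libraries of bone-marrow-derived macrophages. The cells were grown from the marrow of wild-type male C57BL/6 mice aged 12 weeks and all carried a transcription factor reporter virus.

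Halofuginone was given at 2.4, 9.7, 39, 156, 625, 2500 or 10000 nM with 2 mM proline, or at the same doses without it, with 2 libraries for each dose, each proline state and each of the times T0, T1 and T4. The controls were 12 libraries at each time. The series design describes a small molecule given 30 minutes before LPS, the bacterial endotoxin that macrophages sense through Toll-like receptor signalling. The labels give the times as 0, 1 and 4 without a unit, do not say which libraries received LPS, and give no proline status for the controls, so the times are used here as the labels name them. Nothing states that libraries of a group came from separate cultures or animals, so the p-values measure the spread between libraries, which may be technical.

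The libraries held between 20000 and 114061 counts (median 49515), 8 of them fewer than 30000. The ribosomal precursor RNA Rn45s took between 27.0% and 71.1% of a library. All 12 macrophage markers that were in the table had counts, and their summed level ran from 750.1 to 3415 CPM, which is the count scaled to a common library total. Among them Lyz2 had a count in only 15 of the 120 libraries and Mertk in 26, each with a median of 0 CPM. The other macrophage markers had a count in 82 libraries or more, and Csf1r had the highest median, 781 CPM. No erythroid marker had a count, while 8 of 9 neutrophil markers did, at a median summed level of 147 CPM. Of the dendritic cell markers 5 of 7 had counts, at a median of 26.2 CPM and up to 177 CPM. Fibroblast markers had counts for 3 of 5, at a median of 0 and up to 84.4 CPM. The B cell, T and NK cell, and mast cell and eosinophil lists had medians of 0 CPM. All levels of the 4 genes are CPM with TMM factors computed over the 120 libraries. Each fit computed its own factors, so a log2 change can differ from the ratio of the CPM printed beside it: at T4 and high-dose halofuginone the median change over all genes was -0.23 in the fit and -0.61 with the factors of the CPM. In bulk RNA, fewer cells of a type and less RNA per cell cannot be told apart.

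CC chemokines are small secreted proteins that bind G-protein-coupled receptors and draw leukocytes towards inflamed tissue. Ccl3 and Ccl4 are classical early products of activated macrophages, encoded by genes that NF-kB and AP-1 factors switch on and whose mRNAs carry AU-rich decay elements. Ccl6 and Ccl9 belong to a rodent branch of the family with no direct human counterpart and are known for expression in resting myeloid cells. Halofuginone blocks the glutamyl-prolyl-tRNA synthetase by competing with proline for its site, which starves cells of charged prolyl-tRNA and triggers the amino acid response, and added proline can compete with the drug.

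The 4 genes lie within 91765 bases of chromosome 11 of the mouse genome (GRCm38, GENCODE M21 annotation). Ccl9 occupies chr11:83572919-83578636 on the minus strand and has 4 exons. Ccl6 follows at chr11:83587882-83593087 on the same strand, also with 4 exons, and a plus-strand gene, E230016K23Rik, overlaps it. Ccl3 lies at chr11:83647844-83649355 on the minus strand with 3 exons, and Ccl4 at chr11:83662584-83664683 on the plus strand with 3 exons. The gap between Ccl9 and Ccl6 was 9245 bases, that between Ccl6 and Ccl3 was 54756 bases and that between Ccl3 and Ccl4 was 13228 bases. A predicted RefSeq form of Ccl4 starts inside Ccl3 on the other strand, at base 83648624, so the stretch they share is the 5′ part of both. The 3′ ends of Ccl3 and Ccl4, near which tags are read, lie outside it. Since the strand setting of the counting is not given, any reads within overlaps of genes could not be separated.

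**Figure D1:**
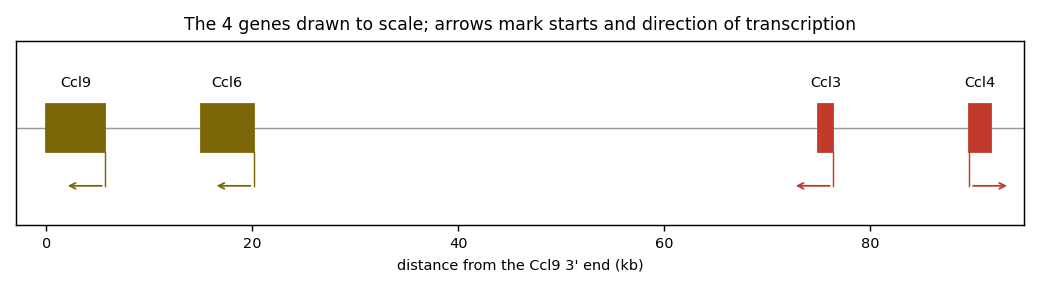
Positions of the 4 chemokine genes along their cluster, in kilobases from the 3′ end of Ccl9, with boxes for the genes and arrows for their strand. Ccl9 and Ccl6 stand 9245 bases apart on the minus strand, and Ccl3 and Ccl4 form a separate pair whose members run in opposite directions.

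The 250 bases before the annotated start are shown for 3 members, because the results below separate Ccl3 from Ccl9 in their response to the drug while Ccl6, next to Ccl9, was scarcely counted. They come from RefSeq on GRCm38.p6, at chr11:83649379-83649628 for Ccl3, chr11:83593088-83593337 for Ccl6 and chr11:83578637-83578886 for Ccl9, all on the minus strand and written 5′ to 3′. Capitals mark matches to any of 6 motifs searched on both strands: the NF-kB consensus, the AP-1 motif TGANTCA, the cyclic AMP response element TGACGTCA, the C/EBP-ATF element TGATGCAA, the PU.1 core AGGAAG and the ISRE core AAANNGAAA.
Ccl3: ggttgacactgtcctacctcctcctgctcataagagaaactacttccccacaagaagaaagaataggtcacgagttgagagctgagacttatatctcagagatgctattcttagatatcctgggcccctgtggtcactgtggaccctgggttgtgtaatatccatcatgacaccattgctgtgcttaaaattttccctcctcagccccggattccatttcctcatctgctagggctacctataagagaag
Ccl6: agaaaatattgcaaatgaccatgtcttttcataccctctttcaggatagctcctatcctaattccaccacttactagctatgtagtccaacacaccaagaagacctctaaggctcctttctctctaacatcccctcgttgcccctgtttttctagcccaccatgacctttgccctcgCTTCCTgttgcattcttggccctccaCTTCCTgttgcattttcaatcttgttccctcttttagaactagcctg
Ccl9: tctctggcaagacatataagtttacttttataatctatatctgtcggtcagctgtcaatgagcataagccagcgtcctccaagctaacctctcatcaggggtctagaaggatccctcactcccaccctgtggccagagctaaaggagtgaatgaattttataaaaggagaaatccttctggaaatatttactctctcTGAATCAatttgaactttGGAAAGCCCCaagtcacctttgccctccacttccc

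The Ccl9 window held an NF-kB consensus match 35 to 26 bases before the start and the AP-1 motif at 53 to 47 bases before it, where it matched on both strands. Among 32851 windows of the same length, 7.25% held the NF-kB consensus and 6.75% the AP-1 motif. The Ccl6 window held the PU.1 core at 2 places, 73 to 68 and 47 to 42 bases before the start, and 29.5% of windows held that core. None of the 6 motifs matched in the Ccl3 window, which says only that these letters are not in those bases. Over longer windows of 300 bases, which extend past the start, the longest run of bases that Ccl6 and Ccl9 shared was 13, against 8 for Ccl3 with either of them. Other pairs of promoters were not compared.

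The annotated 3′ UTRs, where AU-rich elements sit, differed in their content of the ATTTA pentamer. Ccl3 had 5 in 409 bases, or 12.2 per kilobase, and 0.647% of 21020 genes had as many per kilobase. Ccl4 had 2 in 302 bases and 6.62 per kilobase, a density reached by 3.79% of genes. Ccl6 had 4.24 and Ccl9 had 2.03 per kilobase, reached by 11% and 35.1% of genes, against a median of 1.24 over all genes. The nonamer TTATTTATT was found in none of the 4, and in 7.66% of genes overall. These counts are descriptions and measure no decay.

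Ccl3 and Ccl4 were close to absent from controls at T0 and abundant at T1 and T4, while Ccl9 was already present at T0 and rose further. The lowest, median and highest CPM of Ccl4 over 12 control libraries were 0, 20.9 and 63.6 at T0, 1413, 1820 and 2203 at T1, and 2315, 2867 and 4016 at T4. For Ccl3 they were 0, 0 and 40.3 at T0, where 7 of 12 libraries had no count, 446, 644 and 956 at T1, and 1133, 1653 and 2281 at T4. No T1 or T4 library of either gene overlapped with a T0 library, and the 3 times stood apart from each other for both genes. How many other genes stood apart in this way was not counted. Of all genes tested, 26.1% were called in either direction at T1 against T0, 76.4% at T4 against T0 and 62.1% at T4 against T1.

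Each change in controls was tested with edgeR over 708 genes. At T1 against T0, Ccl4 rose by 6.00 on the log2 scale (SE 0.18, adjusted p = 3.63e-36) and Ccl3 by 5.61 (SE 0.27, adjusted p = 4.81e-26). Ccl9 rose by 1.61 (SE 0.12, adjusted p = 3.85e-18), when 18.2% of all genes tested were higher. At T4 against T0, when 36.4% of genes were higher, the changes were 6.92 (SE 0.24, adjusted p = 2.02e-33) for Ccl3, 6.59 (SE 0.17, adjusted p = 1.94e-39) for Ccl4 and 2.44 (SE 0.11, adjusted p = 5.16e-27) for Ccl9. At T4 against T1 all 3 rose again, against 30.9% of genes, by 1.31 (SE 0.12, adjusted p = 6.37e-14) for Ccl3, 0.58 (SE 0.09, adjusted p = 2.46e-07) for Ccl4 and 0.83 (SE 0.10, adjusted p = 1.46e-10) for Ccl9. Ccl3 and Ccl4 reached the filter's cutoff in 0 of 12 libraries at T0 and in every library at T1 and T4, so no tally of tested members is set against T0. The summed neutrophil markers had a median of 207 CPM in T4 controls and 361 CPM in T0 controls, and their part in these changes was not tested.

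Ccl9, a chemokine of resting myeloid cells that acts on the receptor it shares with Ccl3, was therefore not at a fixed level in controls. Its lowest, median and highest CPM were 316, 447 and 733 at T0, 849, 1605 and 1810 at T1, and 2314, 2899.7 and 3325 at T4. The groups did not overlap between any pair of times, which was not counted for other genes. The 12 T0 libraries together held 354 counts of Ccl9, 19 of Ccl4 and 8 of Ccl3.

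Ccl6 was barely counted. The 12 control libraries gave 32 counts at T0, 40 at T1 and 22 at T4, with means of 41.0 ± 22.1, 52.6 ± 56.7 and 22.3 ± 11.8 CPM (SD, n = 12 each). It passed the filter on low counts in none of the fits, so it has no edgeR result. In permutation tests of CPM over libraries, chosen after its counts were seen, T4 controls were lower than T0 controls by 18.8 CPM (adjusted p over 9 tests = 0.0392), with the ranges overlapping. T1 controls and T0 controls differed by 11.6 CPM (adjusted p = 0.580), less than the spread between libraries. In the same libraries the log2 ratio of Ccl9 to Ccl6 (each count + 1) was 6.47 ± 0.60 at T4 and 3.15 ± 0.71 at T0, a difference of 3.32 (permutation test, adjusted p over 18 tests = 0.00018).

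**Figure D2:**
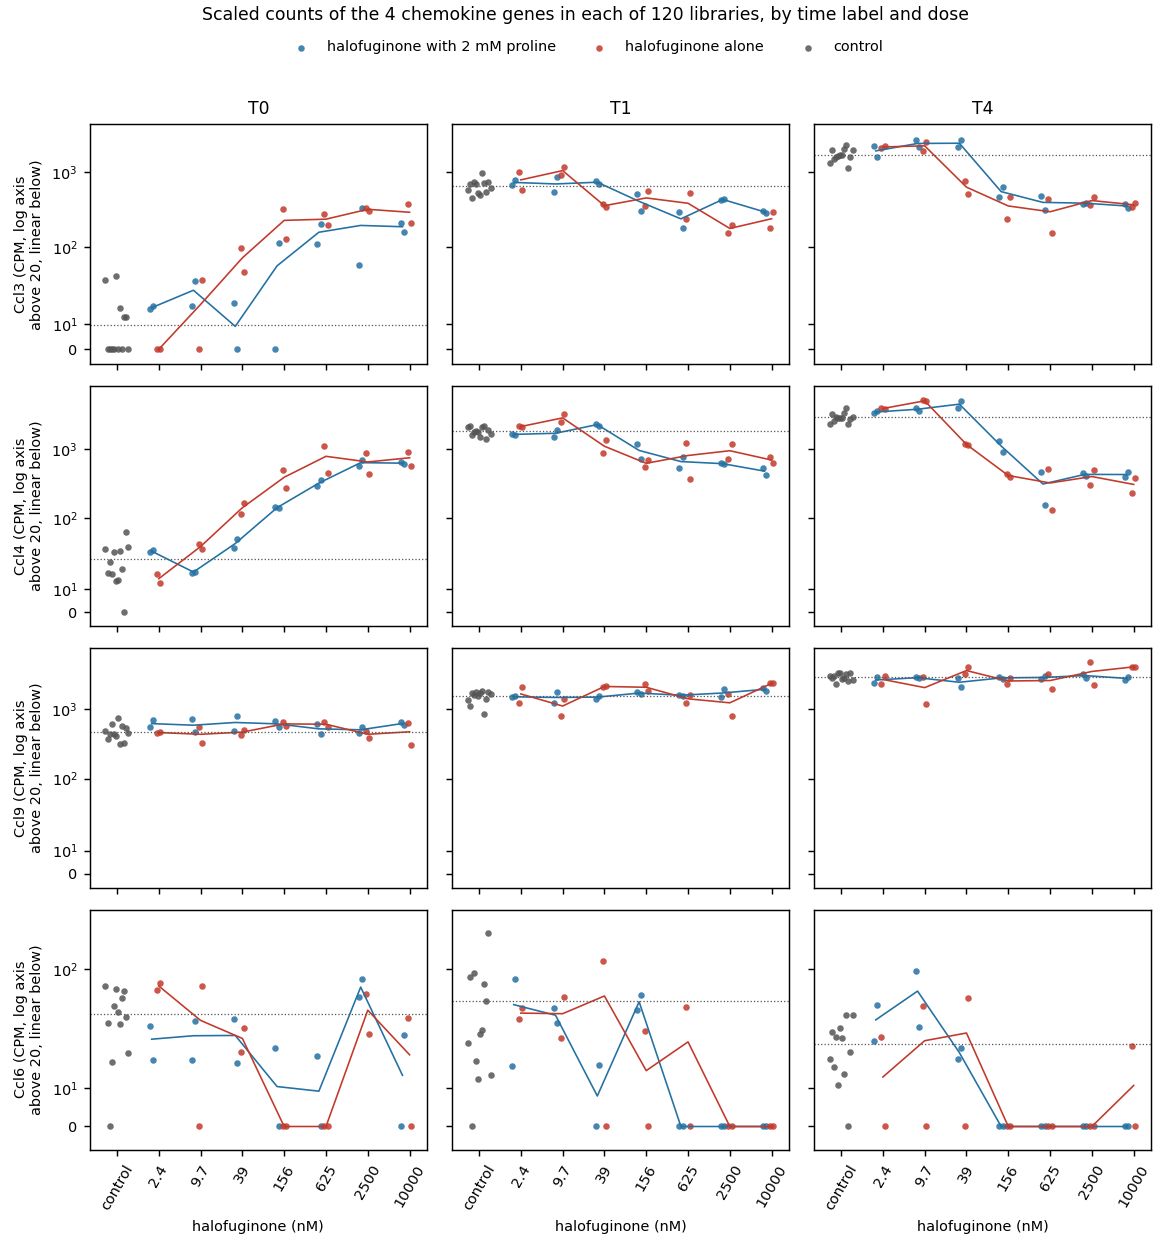
CPM of each chemokine in every library by halofuginone dose (nM), with controls at the left of each panel, for T0, T1 and T4 and for halofuginone with and without 2 mM proline; the vertical axis is linear near 0 and logarithmic above. At T0 Ccl3 and Ccl4 climb above the controls from 39 nM without proline, at T4 both lie below the controls from 39 nM without proline and from 156 nM with it, Ccl9 lies on both sides of the control range and Ccl6 holds at most 13 counts in a library.

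At T0, halofuginone alone was followed by higher Ccl3 and Ccl4. The median of the 12 controls for Ccl4 was 20.9 CPM. The pairs of libraries gave 16.5 and 12.7 CPM at 2.4 nM, 41.9 and 35.9 at 9.7 nM, 116 and 169 at 39 nM, 511 and 278 at 156 nM, 1128 and 462 at 625 nM, 881 and 436 at 2500 nM, and 933 and 582 at 10000 nM. Every library from 39 nM upward was above the highest control, 63.6 CPM, and the 4 libraries at the lowest 2 doses were within the control range. Ccl3 gave 0 and 0 CPM at 2.4 nM, 0 and 35.9 at 9.7 nM, 96.6 and 46.1 at 39 nM, 323 and 129 at 156 nM, 273 and 195 at 625 nM, 334 and 299.8 at 2500 nM, and 373 and 205 at 10000 nM. Here too each library from 39 nM upward was above the highest control, 40.3 CPM.

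For tests, doses were grouped as high (625, 2500 and 10000 nM, 6 libraries) and middle (39 and 156 nM, 4 libraries) and set against the 12 controls of the same time in a fit of 40 libraries. At the high doses and T0, Ccl4 averaged 737 ± 284 CPM with halofuginone (SD, n = 6) and 25.5 ± 16.4 CPM in controls (SD, n = 12), a log2 change of 4.79 (SE 0.32, adjusted p = 2.53e-22). Ccl3 averaged 280.1 ± 70.6 CPM with halofuginone and 9.88 ± 14.6 CPM in controls, a log2 change of 4.498 (SE 0.55, adjusted p = 1.56e-10) that rests on 54 counts against 8. Ccl9 averaged 503 ± 138 CPM with halofuginone and 474 ± 121 CPM in controls, a difference of 0.14 (interval -0.28 to 0.56, adjusted p = 0.621). Of the 1130 genes tested 170 were higher, and 38.5% were called in either direction. At T0 Ccl3 and Ccl4 reached the filter's cutoff in treated libraries only, so no tally of tested members is given for that time. Without the filter the high-dose changes were called as well, at 4.45 (adjusted p = 1.04e-30) for Ccl4 and 4.161 (adjusted p = 2.2e-12) for Ccl3. At the middle doses Ccl3 rose by 3.37 (SE 0.67, adjusted p = 4.72e-05) and Ccl4 by 3.18 (SE 0.40, adjusted p = 9.13e-10), when 13.7% of genes were higher.

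At T1 the order was turned round, with lower Ccl3 and Ccl4 under the drug. The high-dose libraries gave a lowest, median and highest Ccl4 level of 373, 751 and 1261 CPM, against 1413, 1820 and 2203 CPM in controls. The ranges did not overlap, which was not counted for other genes. For Ccl3 they were 155, 215 and 529 CPM with halofuginone and 446, 644 and 956 CPM in controls, and the highest treated library lay inside the control range. Ccl4 fell by 0.91 (SE 0.19, adjusted p = 8.26e-05) and Ccl3 by 1.00 (SE 0.26, adjusted p = 0.00143), so 2 of 3 tested members were lower, against 23.3% of 1066 genes. Without libraries under 30000 counts, of which the high-dose arm at T1 held 4 of 6, the Ccl3 call ended at -0.46 (adjusted p = 0.332) and the Ccl4 change was -1.68 (adjusted p = 6.94e-06).

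The middle doses at T1 gave a Ccl4 level of 876 and 1351 CPM at 39 nM and of 552 and 707 CPM at 156 nM, below every control. How many other genes lay below every control was not counted. Ccl4 was the 1 lower member of 3, against 16.1% of genes, with a change of -0.97 (SE 0.20, adjusted p = 0.00017). Ccl3 changed by -0.50 (adjusted p = 0.118), which became a call with median-of-ratios scaling at -0.69 (adjusted p = 0.0298) and with TMM factors over all 120 libraries at -0.66 (adjusted p = 0.0326).

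At T4 both genes were again lower, from 39 nM upward. Controls had a median Ccl4 of 2867 CPM. The pairs of libraries with halofuginone alone gave 3955 and 3911 CPM at 2.4 nM, 5188 and 4992 at 9.7 nM, 1193 and 1171 at 39 nM, 433 and 404 at 156 nM, 519 and 133 at 625 nM, 308 and 501 at 2500 nM, and 235 and 386 at 10000 nM. The 4 libraries at 2.4 and 9.7 nM lay at the top of the control range or above it, and all 10 libraries from 39 nM upward lay below the lowest control, 2315 CPM. How many other genes lay below every control was not counted, and 35.5% of genes tested were called lower at the high doses. On the scale of these CPM the median gene was lower there as well. No test was made of the lowest 2 doses. Ccl3 gave 2113 and 2185 CPM at 2.4 nM, 1912 and 2537 at 9.7 nM, 749 and 502 at 39 nM, 236 and 466 at 156 nM, 433 and 155 at 625 nM, 364 and 465 at 2500 nM, and 342 and 386 at 10000 nM, against a lowest control of 1133 CPM.

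At the high doses and T4, Ccl4 averaged 347 ± 152 CPM with halofuginone and 2942 ± 470 CPM in controls, a log2 change of -2.74 (SE 0.20, adjusted p = 8.74e-20). Ccl3 averaged 357 ± 109 CPM with halofuginone and 1689 ± 316 CPM in controls, a change of -1.88 (SE 0.21, adjusted p = 2.87e-12). These were 2 lower members of 3, against 35.5% of 1315 genes. The middle doses gave -1.70 (SE 0.22, adjusted p = 2.76e-09) for Ccl4 and -1.46 (SE 0.24, adjusted p = 6.63e-07) for Ccl3, with 25.9% of genes lower.

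Ccl9 was called lower with the drug at none of the 3 times. At T4 its lowest, median and highest level was 1951, 3583 and 4697 CPM at the high doses and 2314, 2899.7 and 3325 CPM in controls, so the treated libraries spread to both sides of the controls. The fitted change was 0.58 (SE 0.15, adjusted p = 0.000578), which made Ccl9 the 1 higher member of 3, against 19.1% of genes. The call ended without a filter on low counts, at 0.14 (adjusted p = 0.641), and with TMM factors over all 120 libraries, at 0.19 (adjusted p = 0.299). At T1 Ccl9 changed by 0.37 (SE 0.16, adjusted p = 0.0701) at the high doses, which became a call without replicate 2 at 2500 nM, at 0.51 (adjusted p = 0.0178). It rose by 0.61 (SE 0.17, adjusted p = 0.00489) at the middle doses, against 12.9% of genes. That rise, and one of 0.41 at the middle doses and T4 (adjusted p = 0.0445, 14.7% of genes higher), were not kept with median-of-ratios scaling, where they were 0.42 (adjusted p = 0.0579) and 0.14 (adjusted p = 0.547). With TMM factors over all 120 libraries the T4 value was 0.051 (adjusted p = 0.83), so the direction of Ccl9 at T4 is given relative to each fit's own scaling. The T1 rise also ended without replicate 1 at 156 nM, at 0.53 (adjusted p = 0.0503), and the T4 rise when any of 3 of the 4 libraries was left out, at 0.33 to 0.49 over all 4.

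Rn45s was higher in the same treated libraries, with a mean share of 62.3% with high-dose halofuginone and 47.7% in controls at T0, and of 64.6% and 38.0% at T4. The summed level of 12 macrophage markers was lower in the same libraries, with medians of 1996, 1432 and 1063 CPM with high-dose halofuginone at T0, T1 and T4 and of 2627, 2925 and 2556 CPM in controls. The 9 neutrophil markers had medians of 61.5, 98.3 and 39.2 CPM with high-dose halofuginone at T0, T1 and T4 and of 361, 347 and 207 CPM in controls. At T0 they ran from 0 to 149 CPM with high-dose halofuginone, where 4 of 9 had a count and Camp, Elane, Mpo, Retnlg and Mmp8 were at 0, and from 207 to 433 CPM in controls, where Elane and Retnlg were at 0. At T4 they ran from 0 to 83.9 CPM with high-dose halofuginone and from 106 to 419 CPM in controls. With proline as well the T0, T1 and T4 medians were 2080, 1797 and 1262 CPM for the macrophage markers and 60.3, 14.1 and 77.2 CPM for the neutrophil markers. The part of these markers in the chemokine changes was not tested. Rn45s, 4 other structural RNAs and the protein-coding gene Lars2, a set called structural RNAs below, were then removed. The high-dose changes were 4.82 for Ccl4 and 4.53 for Ccl3 at T0 and -2.78 and -1.92 at T4. TMM factors were computed anew over the remaining genes, which leaves little room for a change, and the part of Rn45s was not tested.

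The opposite directions at T0 and later were compared in fits of their own. The high-dose change of Ccl4 at T1 differed from that at T0 by -5.78 log2 units (SE 0.37, adjusted p = 1.32e-21), and that of Ccl3 by -5.57 (SE 0.50, adjusted p = 7.63e-15), when 5.81% of 1084 genes had a lower change at T1. At T4 against T0 the differences were -7.81 for Ccl4 (SE 0.37, adjusted p = 2.51e-30) and -6.68 for Ccl3 (SE 0.47, adjusted p = 1.44e-20), with 16.2% of 1468 genes lower. All of these rest on T0 controls with 19 counts of Ccl4 and 8 of Ccl3. From T0 to T1, mean Ccl4 went from 737 to 826 CPM at the high doses and from 25.5 to 1847 CPM in controls. Mean Ccl3 went from 280 to 265 CPM at the high doses and from 9.88 to 639 CPM in controls, so mostly the controls moved. Ccl9 differed by 0.14 at T1 (interval -0.40 to 0.68, adjusted p = 0.872) and by 0.17 at T4 (interval -0.34 to 0.67, adjusted p = 0.742).

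Proline at 2 mM made no called difference to any tested member at the high doses. With proline and high-dose halofuginone, Ccl4 averaged 533 ± 169 CPM at T0, 591 ± 122 CPM at T1 and 394 ± 122 CPM at T4, against 737 ± 284, 826 ± 337 and 347 ± 152 CPM with halofuginone alone (SD, n = 6 each). The ranges overlapped at each time. The log2 differences for Ccl4 were -0.54 (interval -1.10 to 0.02) at T0, -0.51 (interval -0.99 to -0.04) at T1 and 0.29 (interval -0.24 to 0.82) at T4, with adjusted p of 0.524, 0.404 and 0.739. For Ccl3 they were -0.66 (interval -1.66 to 0.34), 0.22 (interval -0.42 to 0.87) and 0.15 (interval -0.38 to 0.68). Over all genes 0.177% were called at T0 and 0 at T1 and T4, so few genes of any kind were called. The unadjusted p was under 0.05 for 110, 119 and 145 genes. Against controls, the arm with proline at high doses gave Ccl4 changes of 4.251 (adjusted p = 4.67e-19), -1.42 (adjusted p = 6.08e-09) and -2.45 (adjusted p = 8.27e-18) and Ccl3 changes of 3.84 (adjusted p = 4.12e-08), -0.78 (adjusted p = 0.00558) and -1.73 (adjusted p = 4.18e-11) at T0, T1 and T4. At T0 19.2% of genes were higher, and 2 of 3 tested members were lower at T1 and at T4 against 23.5% and 33.4% of genes. Ccl9 was the third, higher by 0.42 at T1 (adjusted p = 0.0292, 15.3% of genes higher) and by 0.41 at T4 (adjusted p = 0.0173, 18.6% of genes higher), calls that ended with median-of-ratios scaling and turned in sign without a filter on low counts, at -0.14 and -0.028. With TMM factors over all 120 libraries they were 0.18 (adjusted p = 0.400) and -0.018 (adjusted p = 0.936), and at T4 the level of Ccl9 averaged 2868 ± 226 CPM with proline and halofuginone (SD, n = 6) and 2894 ± 319 CPM in controls (SD, n = 12). They also ended when any of 4 of the 6 libraries at T1, or any of 3 of the 6 at T4, was left out.

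At the middle doses Ccl3 and Ccl4 differed between the arms. At T4 and 39 nM, the libraries with proline gave 3998 and 5109 CPM of Ccl4, and those with halofuginone alone gave 1193 and 1171 CPM. The libraries with proline lay at the top of the control range or above it and those without proline below it. At 156 nM Ccl4 stood at 1324 and 920.0 CPM with proline and at 433 and 404 CPM without it, all below the controls. For Ccl3 the values at 39 nM were 2140 and 2679 CPM with proline and 749 and 502 CPM without, and at 156 nM 467 and 623 CPM with proline and 236 and 466 CPM without. The 39 nM pairs stood apart, and the 156 nM pairs of Ccl3 touched without overlapping. How many other genes stood apart in these ways was not counted.

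Over both middle doses at T4, Ccl4 was 1.50 higher with proline than with halofuginone alone (SE 0.26, adjusted p = 4.95e-05) and Ccl3 1.09 higher (SE 0.29, adjusted p = 0.0189), 2 of 3 tested members when 2.59% of 1315 genes were higher. Ccl9 changed by -0.38 (interval -0.81 to 0.05, adjusted p = 0.320). The Ccl4 call held in all the alternatives run, whereas the Ccl3 call ended when any of 4 of the 8 libraries was left out, without libraries under 30000 counts, at 1.00 (adjusted p = 0.135), and without a filter on low counts, at 1.21 (adjusted p = 0.0888). Rn45s moved with this contrast as well, at 43.5% and 37.1% in the 39 nM libraries with proline and 64.3% and 63.7% in those without. Over both doses the summed macrophage markers had medians of 1817 CPM with proline and 1414 CPM without, and the neutrophil markers had medians of 93.8 CPM with proline and 137 CPM without. Their part in the difference was not tested. Removing structural RNAs, with TMM factors computed anew, leaves little room for a change. The Ccl4 difference was then 1.55 and the Ccl3 difference 1.15.

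The doses were also compared singly, which was decided after the values were seen. At 39 nM and T4, Ccl4 was 1.67 higher with proline than without (SE 0.32, adjusted p = 0.000178) and Ccl3 1.66 higher (SE 0.35, adjusted p = 0.0008), when 7.38% of genes were higher. At 156 nM the differences were 1.32 for Ccl4 (SE 0.41, adjusted p = 0.268) and 0.52 for Ccl3 (SE 0.46, adjusted p = 0.767), and 0.0760% of genes were called, 1 of 1315. Against controls at T4, 39 nM with proline gave 0.59 for Ccl4 (adjusted p = 0.114) and 0.47 for Ccl3 (adjusted p = 0.327), with 2.97% of genes called in either direction, while 39 nM alone gave -1.08 (adjusted p = 0.00142) and -1.18 (adjusted p = 0.00176), 2 of 3 tested members against 14.9% of genes. At 156 nM with proline both were below controls, by -0.996 for Ccl4 (adjusted p = 0.00594) and -1.22 for Ccl3 (adjusted p = 0.00374), when 11.6% of genes were lower. At 156 nM alone the changes were -2.32 for Ccl4 (adjusted p = 1.27e-07) and -1.74 for Ccl3 (adjusted p = 0.000125), with 13.4% of genes lower.

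At T0 and 156 nM, Ccl4 rose against controls by 2.41 with proline (adjusted p = 0.000696) and by 3.93 without it (adjusted p = 1.11e-10), and Ccl3 by 2.36 with proline (adjusted p = 0.04997) and by 4.22 without it (adjusted p = 6.67e-06), when 9.56% of genes were higher with proline and 11.1% without. The 4 middle-dose libraries with proline held 9 counts of Ccl3, 8 of them in a single library, against 8 in the 12 controls. Ccl3 reached the filter's cutoff in 0 of those 4. With each of the 4 left out in turn, the change of Ccl3 over both middle doses ran from -1.33 to 1.51. At 39 nM, Ccl4 changed by 0.71 with proline (adjusted p = 0.775) and rose by 2.44 without it (adjusted p = 0.000471), and Ccl3 changed by -0.23 with proline (adjusted p = 0.977) and rose by 2.51 without it (adjusted p = 0.0384), with 1.77% of genes called in either direction with proline and 8.67% higher without. At T1 and 156 nM, Ccl4 fell by 0.79 with proline (adjusted p = 0.0345, 4.13% of genes lower) and fell by 1.34 without it (adjusted p = 0.000808, 10.3% of genes lower), and Ccl9 was higher by 0.62 without proline (adjusted p = 0.0465, 8.63% of genes higher). No member passed at T1 and 39 nM, when 4.69% of genes were called in either direction with proline and 12.5% without. Between arms no member passed at T0 or T1 at either dose, when 1.06% of genes were called at 39 nM and T0, 0.354% at 156 nM and T0, and 0 at T1 for each dose.

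At T0 the middle-dose level of Ccl4 was lower with proline. It stood at 36.7, 49.3, 146 and 140 CPM with proline, from 39 to 156 nM, and at 116, 169, 511 and 278 CPM without it, so the groups overlapped only across doses. The difference was -1.62 (SE 0.46, adjusted p = 0.0390) when 1.86% of genes were lower, and that of Ccl3 was -2.30 (SE 0.83, adjusted p = 0.149) on 9 counts with proline and 26 without, called without replicate 2 at 156 nM with proline, at -4.70 (adjusted p = 0.0444). The Ccl4 call ended when any of 7 of the 8 libraries was left out, and with TMM factors over all 120 libraries, at -1.56 (adjusted p = 0.0559). At T1 the middle-dose difference for Ccl4 was 0.74 (SE 0.24, adjusted p = 0.0874), called without replicate 2 at 156 nM with proline, at 0.90 (adjusted p = 0.0498), and otherwise no member passed the test, when 0.657% of genes were called higher. Against controls, the middle doses with proline gave a Ccl4 change of 1.56 at T0 (SE 0.52, adjusted p = 0.0335), when 7.35% of genes were higher, and that call ended when any of the 4 libraries was left out. Over both middle doses with proline no member passed against controls at T1 or T4, when 12.8% and 16.8% of genes were called in either direction.

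**Figure D3:**
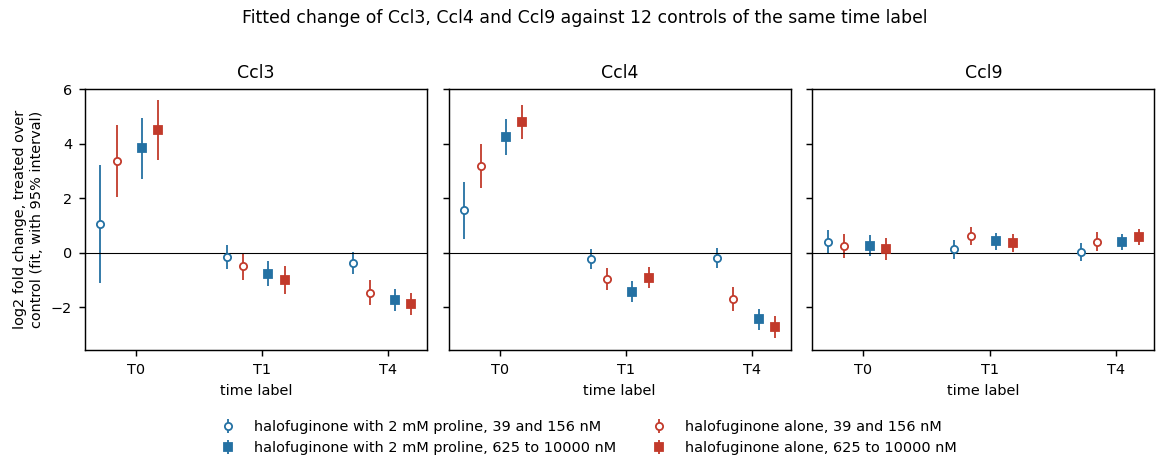
Log2 change from the controls of the same time for Ccl3, Ccl4 and Ccl9 at the high and middle doses, for halofuginone with proline and halofuginone alone; points are edgeR estimates and bars their 95% intervals. At T4 and the high doses the arms with and without proline lie at -1.73 and -1.88 for Ccl3 and at -2.45 and -2.74 for Ccl4, whereas at the middle doses they lie at -0.37 and -1.46 for Ccl3 and at -0.20 and -1.70 for Ccl4.

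Ccl3 and Ccl4 moved in the same directions but not by the same amount, which could be read within libraries from the log2 ratio of their counts (each + 1). At T4 the ratio was 0.10 ± 0.27 with high-dose halofuginone (SD, n = 6) and -0.80 ± 0.10 in controls (SD, n = 12), a difference of 0.90. The lowest treated library, at -0.25, was above the highest control, at -0.61. The exact permutation test gave p = 0.000108, the smallest it can give here, and an adjusted p of 0.000485 over 18 tests. With proline the ratio was -0.02 ± 0.44, a difference of 0.79 with the same adjusted p. In controls the ratio was -0.80 ± 0.10 at T4 and -1.52 ± 0.23 at T1, a difference of 0.72 (permutation test, adjusted p = 0.00018), so Ccl3 gained on Ccl4 between those times.

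At T1 the ratio was -1.50 ± 1.06 with high-dose halofuginone and -1.52 ± 0.23 in controls, a difference of 0.03 (exact permutation test, adjusted p = 0.823) that became 1.23 (adjusted p = 0.0440) without libraries under 30000 counts, of which the treated group held 4 of 6. It was -0.85 ± 0.55 with proline, a difference of 0.67 (exact permutation test, adjusted p = 0.00921). The larger spread of the treated libraries comes with 46 counts of Ccl3 in 6 libraries. At T0 the controls held 8 and 19 counts of the pair, too few to order the ratio: T1 controls against T0 controls gave -0.83 (permutation test, adjusted p = 0.00298), and -0.50 (adjusted p = 0.284) with 0.5 added in place of 1.

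**Figure D4:**
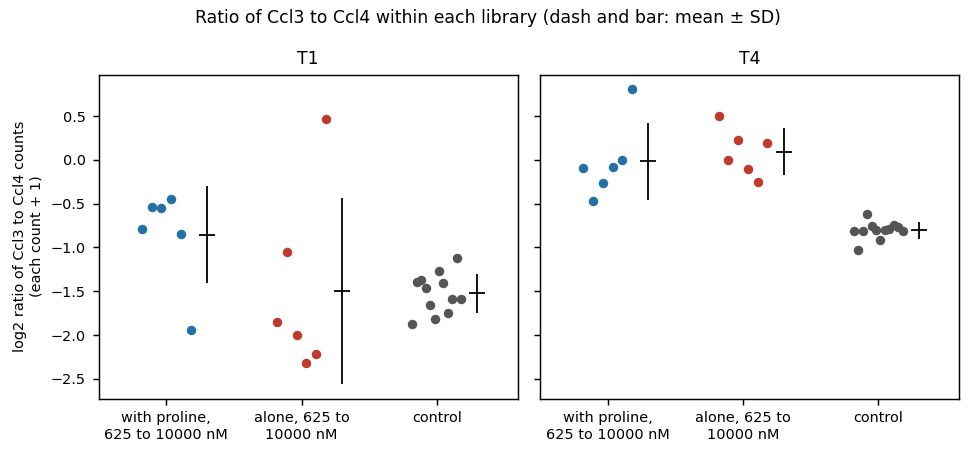
Log2 ratio of the Ccl3 count to the Ccl4 count (each + 1) in every library at T1 and T4 by group; points are libraries and bars group means with SD. At T4 the 6 high-dose libraries with halofuginone alone lie between -0.25 and 0.50, all above the 12 controls, which lie between -1.03 and -0.61.

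Fewer counts of Ccl6 were seen with the drug, in libraries that were also shallower. High-dose halofuginone with proline gave 0 counts at T1 and 0 at T4 over 6 libraries each, against 40 and 22 counts over 12 controls. Those libraries were shallower, averaging 38662 total counts at T1 and 42524.5 at T4, against 58011 and 75617 in controls. Outside Rn45s they averaged 14747 counts at T1 and 15120 at T4, against 32131 and 46528 in controls. Taking 3 counts over the group as the limit that a count of 0 allows, those groups could hold up to 15.3 CPM at T1 and 14.0 CPM at T4, against control means of 52.6 and 22.3 CPM. The T1 control mean is pulled up by its top: the median was 28.4 CPM, the highest level 204.6 CPM and the highest count 13. No control library was left out in turn for Ccl6. Halofuginone alone gave 1 count at T1 and 1 at T4 over 6 libraries each, which averaged 11401 and 16011.5 counts outside Rn45s. Exact permutation tests of CPM treat libraries of unequal depth alike, although a shallower library gives 0 counts more readily, so they may overstate the evidence. The differences in CPM passed these tests for halofuginone with proline at T1 and T4 (adjusted p = 0.0034 each) and for halofuginone alone at T4 (adjusted p = 0.0120) and T1 (adjusted p = 0.0471). The last of these ended when CPM were taken over counts outside structural RNAs (adjusted p = 0.0976) and without libraries under 30000 counts (adjusted p = 0.0989), and when any of 5 of the 6 treated libraries was left out (adjusted p = 0.0829). At T0, with 4 counts for halofuginone alone and 7 with proline against 32 in controls, neither arm passed (adjusted p = 0.130 and 0.493), although halofuginone alone did without replicate 1 at 2500 nM (adjusted p = 0.0393). With 0 or 1 count of Ccl6 in a treated group at T1 and T4, the ratio of Ccl9 to Ccl6 there is set by the number added to each count: at T1 with proline it differed from controls by 0.97 (adjusted p = 0.131) with 1 added and by 1.65 (adjusted p = 0.0209) with 0.5 added.

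Other CC chemokines counted in the same fits were compared from a list of 14, of which 3 at most passed the filter on low counts. At T4 against T0 in controls, 3 of 3 rose, when 36.4% of all genes tested did, with a median of 7.11 beside -0.14 over all genes. Ccl5, a T cell and monocyte attractant, rose by 7.11 (adjusted p = 1.55e-37) and Ccl7 by 7.77 (adjusted p = 2.61e-20). With high-dose halofuginone at T4, 2 of 3 fell against 35.5% of genes, with Ccl5 changed by -2.61 (SE 0.21, adjusted p = 2.13e-18) and Ccl7 by -2.63 (SE 0.38, adjusted p = 1.46e-08). At T0 Ccl2, a monocyte attractant, alone of the list was tested, and it rose by 4.26 with high-dose halofuginone (adjusted p = 9.32e-07). At the middle doses and T4, Ccl5 was 1.74 higher with proline than without (adjusted p = 9.0e-06) and Ccl7 was 1.89 higher (adjusted p = 0.0189), when 2.59% of genes were higher. Genes of this and the following lists could pass the filter through the group where they were high, so their counts are descriptions.

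Of 10 chemokine receptors and scavengers, 9 were in the table and 1 to 3 were tested in a comparison. Ccr2, the monocyte receptor for Ccl2, fell by 3.26 at T4 against T0 in controls (adjusted p = 2.24e-13). With high-dose halofuginone at T0, 2 of 2 tested fell, when 23.5% of genes were lower and the median over all genes was -0.19. Ccr2 fell by 3.74 (adjusted p = 7.2e-06) and Cx3cr1, the fractalkine receptor, fell by 3.03 (adjusted p = 0.00143). Of 15 genes of receptor signalling and desensitisation, 8 were tested at T0, and 2 rose and 1 fell with high-dose halofuginone, when 170 of the 1130 genes rose and 23.5% fell. Rgs1, a GTPase activator that dampens G-protein signalling, rose by 4.22 (adjusted p = 1.99e-18) and Rgs2 by 1.45 (adjusted p = 6.0e-08).

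Of 19 regulators of chemokine transcription and mRNA decay, 18 were in the table. In controls at T1, 6 of 7 tested were higher than at T0, against 18.2% of genes, with Nfkbia, the NF-kB inhibitor, up by 3.55 (adjusted p = 1.22e-33) and Nfkbiz up by 5.35 (adjusted p = 3.98e-29). High-dose halofuginone at T0 raised 7 of 10 tested and lowered 0, when 170 of 1130 genes rose and 23.5% fell, with a median of 2.56 beside -0.19 over all genes. Nfkbia rose by 3.14 (adjusted p = 3.46e-24) and Junb, an AP-1 subunit, by 2.91 (adjusted p = 1.83e-20). At T4 2 of 11 tested were higher and 4 lower, when 19.1% of all genes were higher and 35.5% lower, shares close to those of the list, whose median was -0.32 beside -0.23 over all genes. Nfkbia fell by 1.40 (adjusted p = 2.33e-10) and Irf8, a myeloid transcription factor, fell by 3.87 (adjusted p = 1.92e-08).

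The genes most like each member were found from the Pearson correlation of mean log2 CPM over the 45 groups, among 1763 genes. These groups share libraries' depth and Rn45s share, and the values are descriptions. Ccl3 was most like Ccl4 (r = 0.94), Sdc4, a cell surface proteoglycan (r = 0.94), and Tnfaip2 (r = 0.92). Ccl4 was most like Ccl3, Il1b, the pro-inflammatory cytokine (r = 0.93), and Sdc4 (r = 0.90). Ccl9 was most like Ptgs2, which makes prostaglandins (r = 0.95), Cxcl10, an interferon-induced chemokine (r = 0.95), and Il1a (r = 0.92). Between members, Ccl9 correlated with Ccl3 at 0.69 and with Ccl4 at 0.53. Ccl6, which failed the filter, was most like Magt1, Rpl27 and Rps25 (r = 0.71 each), and its r with Ccl3, Ccl4 and Ccl9 was 0.01, 0.08 and -0.31.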

How the data were processed

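RNA was measured by 3′ digital gene expression (a modified SCRB-Seq protocol, per the labels) in 120 macrophage libraries. The deposited values are raw counts per gene symbol, which the authors made from reads linked to BWA and mm10 in the submitters' processing notes. Not given in the sources used here are the counting program, its annotation, its strand setting and whether molecular identifiers were counted. All 120 columns were mapped to samples, and of 240 replicate pairs no 2 columns were the same.

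Tests on counts were edgeR 4.0.16 quasi-likelihood F tests (R 4.3.3), TMM scaling and filterByExpr with a minimum count of 10. Tests were two-sided, adjusted by Benjamini-Hochberg over all genes tested, with a threshold of 0.05. A gene is called when its adjusted p is below that threshold. The SE is the absolute log2 change divided by the square root of F, and intervals are 95% intervals. One fit held the 36 controls, 1 fit each the 40 libraries of T0, T1 and T4, and 2 fits compared high-dose changes between times. Low doses were described only. CPM printed for a library use TMM factors over all 120 libraries, and each fit used factors over its own. Within-library ratios used counts + 1, with exact permutation tests where a group had under 10 libraries and 100000 resamples otherwise, over 18 tests. Ccl6 was tested by CPM over 9 tests. Limits from 3 counts cover counting error only. The functions were tested on simulated data. Alternatives were DESeq2 1.42.0, median-of-ratios scaling, TMM factors over all 120 libraries (chosen after seeing the data), no filter, the replicate number as a block, and leaving out structural RNAs, shallow libraries, 10000 nM or single libraries. The protein-coding gene Lars2 was left out with the structural RNAs.

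Named genes were the 4 members, for each the 3 genes most like it, and, in a comparison, up to 2 genes from each list by smallest adjusted p. The members, lists and rules were chosen with earlier results of these data known. Ccl3 and Ccl4 passed the filter only through T1 and T4 in the control fit and only through treated groups at T0.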

Additional observations from a re-analysis of the deposited data

Results flagged for a closer look

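In 54 groups of 4 or 6 libraries (a member, a time, an arm and a dose range), 4 held a library whose log2 CPM stood farther from the rest than Dixon's 95% critical value allows, and chance flags about 1 group in 20. Ccl3 at T0 stood high in replicate 2 at 9.7 nM without proline, at 6.53, and in replicate 2 at 9.7 nM with proline, at 6.53, each on 2 counts. Ccl3 at T4 stood low in replicate 2 at 625 nM without proline, at 7.73. Ccl4 at T4 stood low in replicate 2 at 625 nM with proline, at 7.72 on 3 counts. The high-dose changes of Ccl3 and Ccl4 against controls differed between times in a test of the difference itself, by -5.57 for Ccl3 and -5.78 for Ccl4 at T1 less T0, and by -6.68 for Ccl3 and -7.81 for Ccl4 at T4 less T0. The T0 controls behind these differences held 8 counts of Ccl3 and 19 of Ccl4.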

How the results depend on the processing

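The rises of Ccl3, Ccl4 and Ccl9 in controls, the high-dose changes of Ccl3 and Ccl4 at T0 and T4 in both arms, the high-dose changes of Ccl4 at T1 in both arms, the differences of those high-dose changes without proline between T0 and later times, and the middle-dose difference of Ccl4 with and without proline at T4 kept their direction and their side of the threshold in all alternatives run for them. Over all alternatives other than leaving out a library, 454 of 515 values of single members kept both. With few counts per library (at T0, 8 counts of Ccl3 over 12 controls), folds at T0 and single doses with 2 libraries are the least certain. The cause of the changes below was not tested, except that leaving out libraries leaves fewer samples, and that the block at a single time leaves fewer controls to compare. Alternatives that leave out 1 high-dose library used the genes of the full fit.

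With median-of-ratios scaling, the middle-dose change of Ccl3 at T1 became a call at -0.69, and calls of Ccl9 ended at 0.42 (middle doses, T1), 0.29 (high doses with proline, T1), 0.14 (middle doses, T4) and 0.24 (high doses with proline, T4). Its uncalled middle-dose changes with proline turned to -0.025 at T1 and -0.086 at T4, and 1 gene was called between arms at the high doses and T0, against 2. This scaling moved the median over all genes from -0.14 to 0.05 for T4 against T0 controls, from -0.28 to -0.55 for middle-dose halofuginone at T4, from -0.23 to -0.41 for high doses at T4, from -0.21 to -0.32 for high doses at T1 and from -0.02 to -0.20 for middle doses at T1. Genes called higher and lower were 134 and 27 under it against 129 and 56 for T1 over T0 controls, 288 and 200 against 258 and 283 for T4 over T0, 91 and 224 against 138 and 172 for middle doses at T1, 59 and 110 against 73 and 63 for the same with proline, 121 and 430 against 193 and 341 for middle doses at T4, 52 and 183 against 72 and 149 for the same with proline, and 57 and 13 against 34 and 15 between arms at the middle doses and T4.

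With TMM factors over all 120 libraries, chosen after seeing the data, the call of Ccl4 between arms ended at -1.56 (middle doses, T0), Ccl3 became a call at -0.66 (middle doses, T1), and calls of Ccl9 ended at 0.18 (high doses with proline, T1), 0.19 (high doses, T4) and 0.051 (middle doses, T4). Ccl9 turned to -0.018 and -0.15 at the high and middle doses with proline and T4, and 4 genes were called between arms at the high doses and T0. The median over all genes moved from -0.21 to -0.49 for high doses at T1, from -0.07 to -0.30 for the same with proline, from -0.02 to -0.18 for middle doses at T1, from -0.23 to -0.61 and -0.20 to -0.61 for high doses at T4 without and with proline, from -0.28 to -0.63 and -0.23 to -0.40 for middle doses at T4 without and with proline, from 0.03 to 0.21 between arms at the middle doses and T4, from -0.21 to -0.32 for the difference of changes at T1, and from -0.14 to 0.028 for T4 over T0 controls. Genes called higher and lower were 137 and 26 under it for T1 over T0 controls, 283 and 212 for T4 over T0, 71 and 349 against 120 and 248 for high doses at T1, 101 and 319 against 163 and 251 for the same with proline, 93 and 221 for middle doses at T1, 65 and 85 for the same with proline, 120 and 557 against 251 and 467 for high doses at T4, 107 and 536 against 245 and 439 for the same with proline, 106 and 467 for middle doses at T4, 45 and 215 for the same with proline, 62 and 8 between arms at the middle doses and T4, and 14 and 2 against 7 and 7 at T1.

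With DESeq2, middle-dose Ccl3 at T1 was called at -0.69 and the middle-dose difference of Ccl4 between arms at T1 at 0.78, while that at T0 ended at -1.68. Calls of Ccl9 ended at 0.29 and 0.24 (high doses with proline, T1 and T4) and at 0.14 (middle doses, T4), and uncalled values turned to -0.027 and -0.087 (middle doses with proline, T1 and T4). Genes called between arms were 0 at the high doses and T0, and 26 and 83 at the middle doses and T1 and T4.

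With no filter on low counts, controls gave 318, 2194 and 1745 called genes for T1 over T0, T4 over T0 and T4 over T1. Middle doses with proline against controls gave 80, 49 and 137 at T0, T1 and T4, middle doses between arms 8, 4 and 11, high doses at T1 gave 559, high doses between arms at T1 gave 2, and the T4 difference of changes gave 151. Calls ended for Ccl4 at T0 (1.54 for middle doses with proline, -1.54 between arms), for Ccl3 between arms at T4 (1.21), and for Ccl9 (0.19 at T1 and 0.0085 at T4 for middle doses, 0.14 for high doses at T4). Ccl9 turned to -0.20 and -0.27 at the high doses and T0 and T1, to -0.14 and -0.028 at the high doses with proline and T1 and T4, and to -0.13 and -0.26 at the middle doses with proline and T1 and T4.

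Replicate numbers were not taken to pair the control libraries, because not every pair of the same number at 2 times correlated over 0.1. Over 36 such pairs the correlation of deviations ran from -0.023 to 0.27 with a median of 0.047, 34 were above 0 and 8 over 0.1, and 9 libraries matched best with their own number, a hint of shared deviations from the data and not the design. Between treated groups of 1 time, the median correlation of the differences between replicates was 0.0075, 4e-04 and -0.0045 at T0, T1 and T4. Treated groups hold only replicates 1 and 2, so at a single time the block sets them against 2 of the 12 controls. With the number as a block, calls fell to 235, 132, 260 and 41 at T0 (high, middle, high with proline, middle with proline), 208, 154, 214 and 53 at T1, and 424, 261, 393 and 52 at T4, and between arms to 9 at T1 and 28 at T4 for the middle doses, with 1 at T4 for the high doses. Under the block, Ccl3 missed the threshold at 2.70 (middle doses, T0), -0.99 and -0.75 (high doses without and with proline, T1) and 1.09 (between arms, middle doses, T4). Ccl4 missed it at 1.49 and -1.61 (middle doses with proline at T0, against controls and between arms). Ccl9 missed it at 0.72 and 0.36 (high doses with proline, T1 and T4), 0.52 and 0.37 (high and middle doses, T4), and turned to -0.024 (middle doses with proline, T4). The block changed no other call.

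Without libraries under 30000 counts, calls ended for Ccl3 at -0.46 (high doses, T1) and 1.00 (between arms, middle doses, T4), for Ccl9 at 0.30 and 0.35 (high doses with proline, T1 and T4) and 0.44 (middle doses, T4), and for Ccl6 at -52.6 CPM (high doses, T1). Ccl4 between arms was called at 0.77 (middle doses, T1), and the ratio of Ccl3 to Ccl4 at 1.23 (high doses, T1). Uncalled differences between arms at the high doses and T1 turned to -0.37 for Ccl3, 0.22 for Ccl4 and -0.26 for Ccl9, and Ccl9 turned to -0.033 (middle doses with proline, T4). Genes called between arms were 1 and 3 at the high doses and T1 and T4, and 25 and 14 at the middle doses. Without structural RNAs, calls of Ccl9 ended at 0.32 (high doses with proline, T1) and 0.33 (middle doses, T4), and that of Ccl6 at -89.7 CPM (high doses, T1).

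With 625 and 2500 nM alone, the call of Ccl9 ended at 0.33 (with proline, T1), 1 gene was called between arms at T0, and Ccl9 turned to -0.011 (between arms, T0) and to -0.20 and -0.0051 for the difference of changes at T1 and T4. With 0.5 added to counts, the ratio of Ccl3 to Ccl4 gave -0.50 for T1 against T0 controls, 0.22 for T4 against T0 and -0.037 for high doses at T1, and that of Ccl9 to Ccl6 was called at 1.65 (high doses with proline, T1).

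When each treated library was left out in turn, called genes ranged from 210 to 285 (middle doses, T0), 88 to 148 (the same with proline), 204 to 251 (middle doses, T1), 78 to 90 (the same with proline), 325 to 451 (middle doses, T4) and 70 to 167 (the same with proline). Between arms they ranged from 0 to 6 at the high doses and T0 and at T1 and from 0 to 5 at T4, and from 6 to 30, 0 to 21 and 14 to 56 at the middle doses and T0, T1 and T4. Ccl3 ranged from -1.33 to 1.51 (middle doses with proline, T0) and, between arms, from -4.70 to -1.86 (middle doses, T0), 0.94 to 1.35 (middle doses, T4) and -0.057 to 0.44 (high doses, T4). Ccl4 ranged from 1.45 to 1.635 (middle doses with proline, T0) and, between arms, from -1.83 to -1.37 (middle doses, T0), 0.54 to 0.90 (middle doses, T1) and -0.054 to 0.70 (high doses, T4). Ccl9 ranged from -0.065 to 0.29 and 0.15 to 0.51 (high doses, T0 and T1), 0.53 to 0.69 and 0.33 to 0.49 (middle doses, T1 and T4), 0.34 to 0.49 and 0.35 to 0.47 (high doses with proline, T1 and T4) and -0.066 to 0.13 (middle doses with proline, T4). Between arms it ranged from -0.034 to 0.33, -0.091 to 0.27 and -0.31 to 0.032 (high doses, T0, T1 and T4) and -0.057 to 0.31 (middle doses, T0), and for the difference of changes from -0.081 to 0.29 at T1 and -0.14 to 0.27 at T4. The ratio of Ccl3 to Ccl4 ranged from -0.37 to 0.19 (high doses, T1), and Ccl6 from -28.1 to -16.0 CPM at T0 and -52.6 to -43.3 CPM at T1 (high doses). The call of Ccl9 at the middle doses and T1 ended without replicate 1 at 156 nM.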
